A study of Homo sapiens and Mus musculus with 4 samples.

Results

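The HOX genes encode homeodomain transcription factors that set position along the body axis in the embryo and stay in use in blood formation. In mammals they sit in 4 clusters, HOXA to HOXD, on different chromosomes, and within a cluster the genes are ordered by paralogue number, with low numbers for the anterior genes and high numbers for the posterior ones. In bone marrow, members such as HOXA9, HOXA10 and HOXB4 are known for their activity in stem and progenitor cells, and HOXA9 is widely expressed in acute myeloid leukaemia. ATF4 is a stress-induced factor of the bZIP class. It often binds DNA together with a C/EBP partner.

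The peaks described here are those of the deposited ATF4 ChIP-seq lists that fall in the 4 clusters. A region ran from the first to the last HOX gene of a cluster plus 50 kb on each side, and a peak was counted where its centre lay inside. The human clusters were bounded by 38 HOX genes of the RefSeq annotation, 10 in HOXA, 10 in HOXB, 9 in HOXC and 9 in HOXD. For mouse no annotation was used, and the clusters were taken as chromosome 6 from 52.15 to 52.27 Mb (HoxA), chromosome 11 from 96.19 to 96.37 Mb (HoxB), chromosome 15 from 102.92 to 103.04 Mb (HoxC) and chromosome 2 from 74.66 to 74.77 Mb (HoxD) of GRCm38. These limits are rounded to 10 kb, so mouse peaks were placed in clusters and in their ends but not at single genes. By this rule 1 of 873 KG1a peaks and 42 of 83088 mouse peaks lay in a HOX region.

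One cell source was KG1a, an established human acute myeloid leukaemia line grown with fetal bovine serum, and the second source was marrow cells taken from C57BL/6 mice, a mixture of many cell types whose makeup is not given. The number, age and treatment of the mice are not given in the sources used here. Each source had 1 library precipitated with the same anti-ATF4 antibody and 1 input library made without antibody, so 4 libraries formed 4 groups of 1. The label of the mouse list numbers its ChIP and input above 1, and whether another mouse pair was sequenced is not known. The lists hold positions only, with no height, score or p-value, and the read depth is unknown. With 1 ChIP library per source there was no test over samples. Counts are given with exact Poisson 95% intervals, which cover counting error only and are too narrow where peaks are grouped, and beside the counts in all non-overlapping autosomal windows of the same length.

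The mouse marrow list separated the clusters into a pair rich in peaks and a pair poor in them. HoxB held 24 peaks and HoxC 15, while HoxD held 3 and HoxA held 0. At the mean autosomal density of 33.9 peaks per Mb, regions of these lengths would hold 9.49, 7.46, 7.12 and 7.46 peaks in the same order. The 4 regions together had 42 peaks against 31.5 at the autosomal density, a ratio of 1.33, so the sum hides the contrast between clusters. HoxB alone gave 57.1% of the 42.

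**Figure D1:**
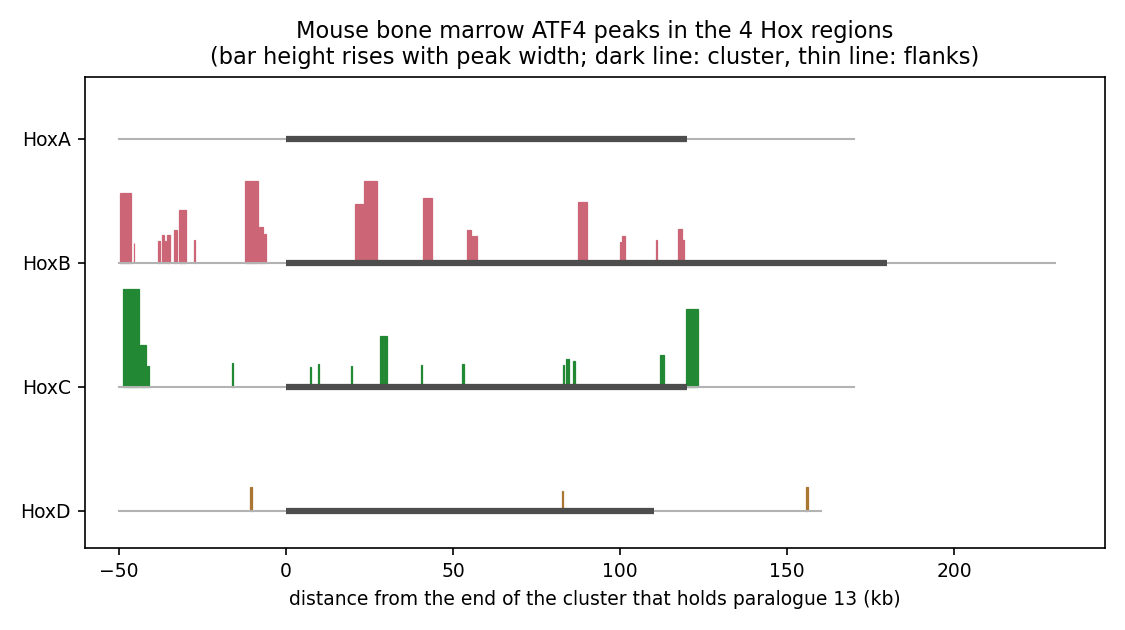
Mouse bone marrow ATF4 peaks along the 4 Hox regions, drawn by distance in kb from the end of each cluster that holds paralogue 13 (left). Dark lines are the clusters, thin lines the 50 kb flanks, and each bar is 1 peak, drawn to its width and taller where wider. HoxA has no bar, HoxD has 3, and the HoxB bars stop short of the anterior end.

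HoxB had the highest count and covered share, although its density did not stay above that of HoxC under every setting. Its 280 kb region had 85.7 peaks per Mb (Poisson interval 54.9 to 128), which is 2.53 times the autosomal mean (1.62 to 3.76). Peaks covered 11.7% of its bases against 3.11% of the autosomes. Of 8553 windows of 280 kb, 2.79% held at least as many peaks, and 1.26% had at least as large a covered share. Chromosome 11 as a whole was also dense, at 44.4 peaks per Mb, and the 500 kb on either side of the region together held 62 peaks in 1 Mb.

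HoxC followed with 68.2 peaks per Mb (38.2 to 112), or 2.01 times the autosomal mean (1.13 to 3.32), and 8.0% of bases in a peak. Here 9.15% of the 10889 windows of 220 kb held at least as many peaks, so this density was less unusual than that of HoxB. The surrounding 1 Mb held 62 peaks, which is close to the density of the region itself. The Poisson intervals of HoxB and HoxC overlap, and the order of their ratios turned without flanks (HoxC 2.46, HoxB 1.97), with peaks within 3 kb joined (2.33 and 1.83) and, by a small margin, against the mean of the same chromosome (1.94 and 1.93).

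HoxD had 14.3 peaks per Mb (2.95 to 41.7), 0.42 of the autosomal mean, and this interval includes the mean. Peaks covered 0.611% of its bases. Windows with at most 3 peaks made up 24.8% of 11408 windows of 210 kb, so a count this low was common. The surrounding 1 Mb held 27 peaks.

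HoxA was empty. The Poisson interval of its count of 0 reaches 3.69 peaks, below the 7.46 of the autosomal density, and 3.64% of the windows of 220 kb were empty too. Some of those windows can be assembly gaps, which were not left out, and how many are was not counted. The sequence around the region was not devoid of peaks: the 500 kb on either side together held 35. The nearest peak below the cluster was chr6:52087962-52088508 (GRCm38, 547 bp), 61.5 kb away, and the nearest above it was chr6:52355358-52355934 (577 bp), 85.4 kb away.

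**Figure D2:**
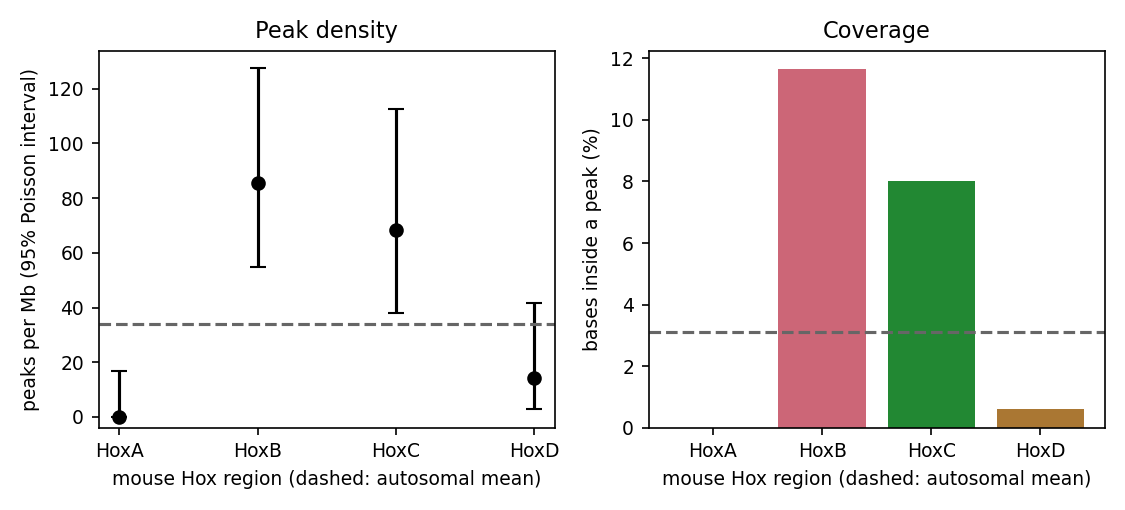
Left, peaks per Mb in each mouse Hox region with exact Poisson 95% intervals; right, percent of bases inside a peak; dashed lines are the autosomal means of 33.9 peaks per Mb and 3.11%. HoxB and HoxC lie above the dashed lines and HoxA and HoxD below, although the HoxD interval crosses the line for density.

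**Figure D3:**
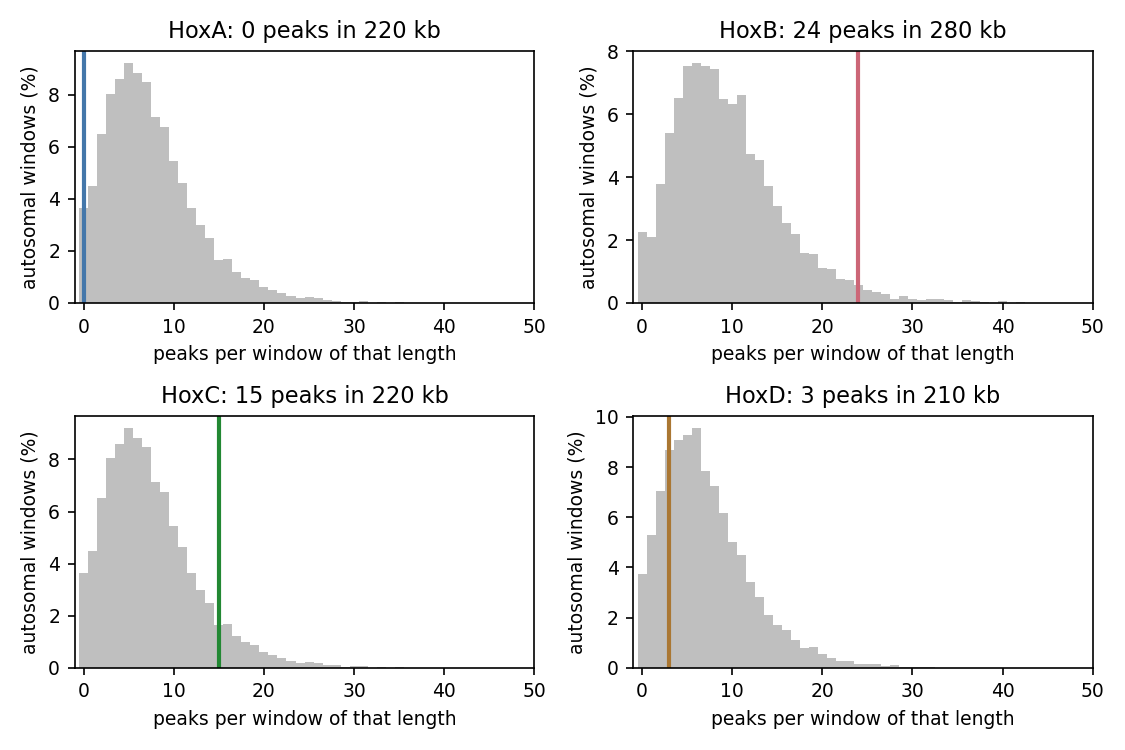
Distribution of peak counts over all autosomal windows of the length of each mouse Hox region (grey, percent of windows), with the count of the region as a coloured line. HoxB at 24 stands in the upper tail, HoxC at 15 on the upper side, HoxD at 3 on the lower side and HoxA at 0 at the edge.

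Stretches without peaks were long in HoxA but did not follow the order of density in the other clusters. Neighbouring mouse peaks were separated by a median of 7.33 kb, and the whole HoxA cluster with both of its flanks lay in one peak-free stretch of 267 kb, chr6:52088509-52355357. Of 81278 such stretches on the autosomes, 0.518% were at least as long, and these together held 6.95% of the autosomal bases. A fixed region is more likely to meet a long stretch than a short one, so the share of bases is the nearer background. In HoxD a stretch of 92.7 kb, chr2:74649916-74742598, took up 75.1% of the cluster. Of all stretches 8.22% were at least as long, and these held 43.5% of the autosomal bases, so such a stretch was common. HoxB, rich in peaks elsewhere, held a longer one. From chr11:96309107 to 96459411, over 150 kb, no peak was listed. This stretch took in 33.8% of the cluster and all of the flank next to it. Stretches at least as long were 2.98% of all and held 22.9% of the autosomal bases. The longest stretch that reached into the HoxC region, 112 kb from chr15:103043257 to 103154854, lay outside the cluster itself. Stretches at least as long were 5.8% of all and held 35.2% of the autosomal bases.

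Within HoxB the peaks were concentrated towards Hoxb13. In mouse this cluster runs with Hoxb13, a posterior gene, at its low-coordinate end and Hoxb1 at the other; the order of genes is background knowledge and was not read from an annotation here. The 50 kb beyond the Hoxb13 end held 12 peaks, which covered 30.8% of the bases. Cut in the middle, the cluster had on its Hoxb13 side 7 peaks and 15.7% of bases covered. Its anterior side had 5 peaks and 3.42%, near the autosomal 3.11%, and the 50 kb beyond the Hoxb1 end had 0. The covered share was lower at each step from the posterior flank to the anterior flank. These steps are not steps between genes. In the human annotation HOXB9 ends at chr17:48626358 and HOXB13 begins at chr17:48724763, with no other HOX gene of the list between them. If the mouse cluster is laid out likewise, its Hoxb13 side is mostly sequence without Hox genes, and most Hoxb genes lie on the anterior side. Mouse gene positions were not read. The step between the sides depends on where the cluster is cut, since the fifth widest peak of the region crosses the cut. With the cut 10 kb nearer to Hoxb13 the sides had 14.5% and 5.62% of bases covered and 6 peaks each, and the widest anterior peak was then 2657 bp.

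The wide HoxB peaks were on that side as well. The 5 widest were chr11:96177727-96181606 (3880 bp), chr11:96213498-96217359 (3862 bp), chr11:96140433-96143592 (3160 bp), chr11:96230899-96233782 (2884 bp) and chr11:96277460-96280116 (2657 bp). The first 4 lay in the flank beyond Hoxb13 or on the side of the cluster next to it. The fifth had its centre 1.2 kb from the middle of the cluster, less than the rounding of its limits, and belongs to neither side with certainty. Past it, the widest peak on the anterior side had 1088 bp. For scale, 2.67% of all mouse peaks were at least as wide as the first and 5.82% as the fifth.

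HoxC was more even along its length. In mouse Hoxc13 stands at the low-coordinate end and Hoxc4 at the other. The Hoxc13 side had 6 peaks and 6.61% of bases covered, and the Hoxc4 side had 4 peaks and 5.26%. With the cut 10 kb nearer to Hoxc4 the order turned, to 5.67% and 6.31%. The flank beyond Hoxc13 held 4 peaks over 14.4% of its bases, most of them in the widest peak of all 4 regions, chr15:102871176-102875976 (4801 bp), near the outer edge of the region. The second widest, chr15:103039609-103043256 (3648 bp), straddled the rounded Hoxc4 end of the cluster, and its centre counted for the flank. It was the only peak there. The next in width were chr15:102948086-102950145 (2060 bp) inside the cluster, chr15:102876495-102878032 (1538 bp) in the Hoxc13 flank and chr15:103032030-103033017 (988 bp) inside the cluster again.

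The 3 HoxD peaks were all short and far apart. One, chr2:74742599-74742881 (283 bp), lay on the side of the cluster away from Hoxd13. The others, chr2:74649430-74649915 (486 bp) and chr2:74815691-74816205 (515 bp), lay in the flanks on either side. All 3 were narrower than the autosomal median of 545 bp.

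**Figure D4:**
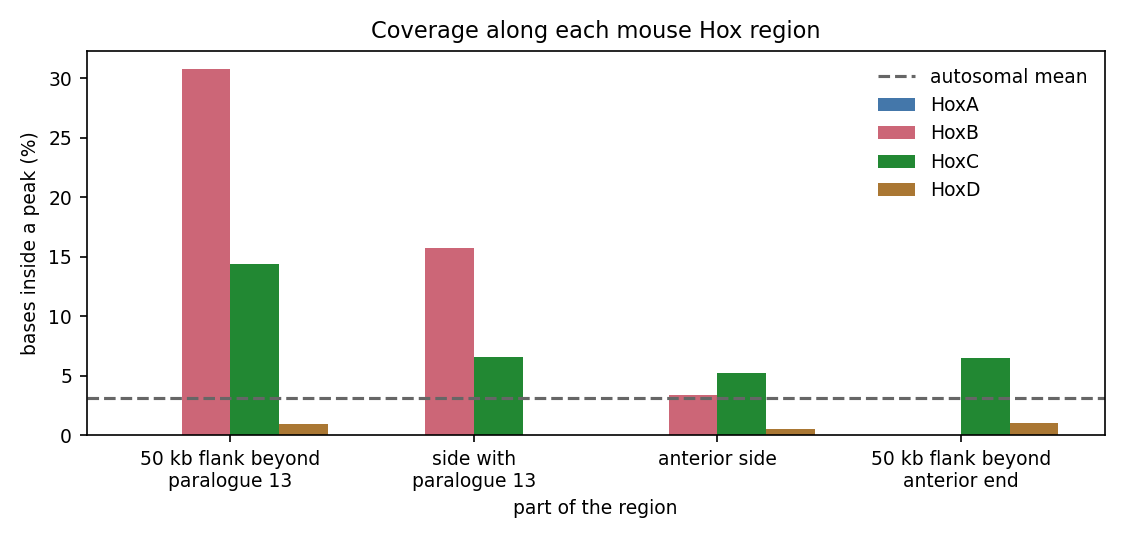
Percent of bases inside a peak in 4 parts of each mouse Hox region, from the flank beyond paralogue 13 to the flank beyond the anterior end; the dashed line is the autosomal mean of 3.11%. HoxB goes from 30.8% to 15.7%, 3.42% and 0, HoxC lies between 5.26% and 14.4% in all 4 parts, HoxD stays at or below 1.03%, and HoxA is 0 throughout.

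Over all 4 regions, the clusters themselves were about as dense as their flanks. The clusters held 23 peaks in 530 kb, or 43.4 per Mb (27.5 to 65.1), and the flanks 19 in 400 kb, or 47.5 per Mb (28.6 to 74.2). The flanks differed more by side. Those beyond paralogue 13 held 17 peaks in 200 kb, or 85 per Mb (49.5 to 136), and those beyond the anterior end 2 in 200 kb, or 10 per Mb (1.21 to 36.1). Of the 17, 12 came from HoxB, and these were grouped. With peaks within 3 kb joined, 7 of the 12 fell in a stretch of 10.9 kb and 3 in a stretch of 6.49 kb. The intervals of the flanks are therefore too narrow, and this contrast between sides was not recounted with joined peaks. The clusters differed less by side, with 49.1 per Mb (26.1 to 83.9) on the side of paralogue 13 and 37.7 (18.1 to 69.4) on the anterior side. In HoxB the flanks were denser than the cluster, at 120 against 66.7 peaks per Mb, and in HoxC the cluster was denser, at 83.3 against 50 per Mb. The Poisson intervals of cluster and flanks overlap in HoxB, in HoxC and over all 4 regions. Where peaks within 3 kb of each other were joined, the HoxB ratio of cluster to flanks turned from 0.56 to 1.30 and that of all 4 regions from 0.91 to 1.42, so the direction of this comparison rests on how grouped peaks are counted.

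Wide peaks were frequent in HoxB. The median was 782 bp there, above the 545 bp of all autosomal peaks, but 527 bp in HoxC and 486 bp in HoxD, below it. Over the 42 peaks the median was 692.5 bp (range 273 to 4801 bp). Wider than the autosomal median were 24 of 42, and wider than 2 kb were 10 of 42, or 23.8%, against 9.43% of autosomal peaks. Of these 10, 7 belonged to HoxB and 3 to HoxC.

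In KG1a the HOX genes were almost without listed peaks, as were most protein-coding genes. No HOX gene had a peak centre within 1 kb of either end, where 0.504% of the 20037 protein-coding genes had one. Within 50 kb of the gene there was 1, HOXB13, of 38 HOX genes, or 2.63%, against 6.22% of all protein-coding genes, and within 10 kb there were 0, against 3.15%. Genes of a cluster share their nearest peak, so the 38 genes rest on 4 peaks and are not 38 separate observations. With so few peaks, the shares of HOX genes cannot be told apart from those of all genes.

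The single KG1a peak in a HOX region was chr17:48771453-48771762 (GRCh38), 310 bp wide, the smallest width in the autosomal list, and stood at place 333 of 873. It lay 42.9 kb beyond HOXB13, inside TTLL6, which encodes an enzyme of tubulin glutamylation and neighbours the cluster on its posterior side. Its centre was 22.8 kb from the centre of the nearer RefSeq promoter of TTLL6. At the autosomal density of 0.30 peaks per Mb, the HOXB region would hold 0.0900 peaks, and the Poisson interval of 1 peak runs from 0.0253 to 5.57. Of 9545 windows of the length of the HOXB region, 8.45% held at least 1 peak. The HOXA, HOXC and HOXD regions held 0, like 94.3%, 93.8% and 94.2% of windows of their lengths. At this sparse density an absence cannot be told from the usual.

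Distances to the nearest KG1a peak followed the clusters. HOXB genes were the nearest, from 42.9 kb for HOXB13 to 241 kb for HOXB1. The HOXB4 gene, known for its use in expanding blood stem cells, was 193 kb away. HOXD genes lay 774 kb (HOXD1) to 869 kb (HOXD13) away, below the median of 961 kb over all protein-coding genes. HOXA genes lay 2026 kb (HOXA2) to 2120 kb (HOXA13) away, with HOXA9 at 2088 kb. HOXC genes were the farthest, from 3913 kb for HOXC13 to 3991 kb for HOXC4, HOXC5 and HOXC6, whose annotated intervals begin at the same base. Of all protein-coding genes, 5.65% were as near to a peak as HOXB13 or nearer, and 86.4% as near as HOXC4 or nearer.

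**Figure D5:**
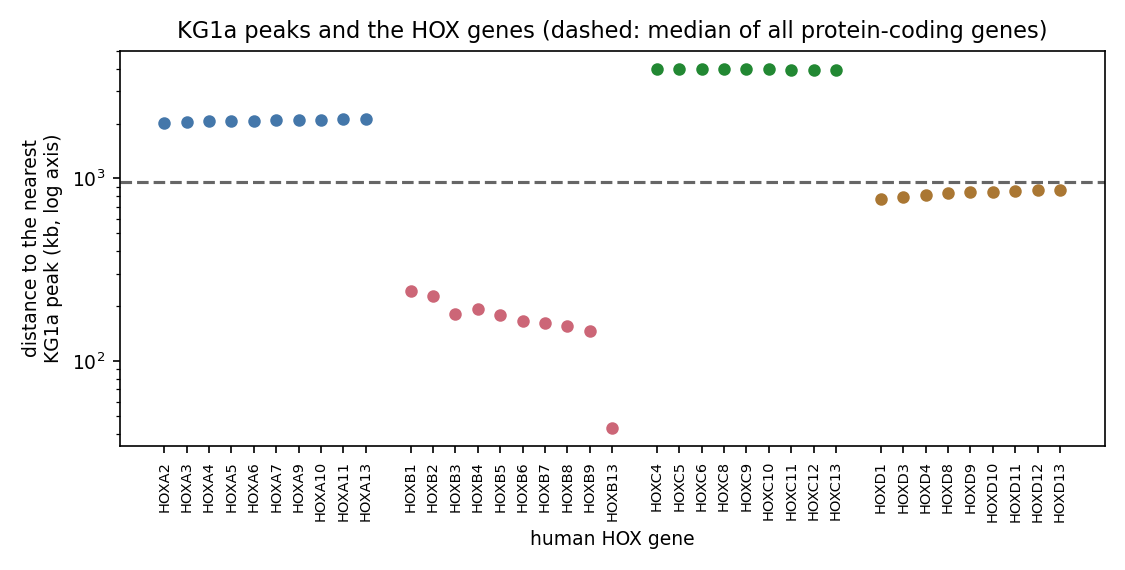
Distance from each of the 38 human HOX genes to the centre of the nearest KG1a peak, in kb on a log axis, ordered by cluster and paralogue number; the dashed line is the median of all protein-coding genes, 961 kb. Genes of a cluster share 1 nearest peak, HOXB genes are the nearest, and HOXB13 is the only one within 50 kb.

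Every cluster had KG1a peaks somewhere on both sides, and on its other side HOXB had none within the 50 kb flank. The nearest there, chr17:48255024-48255340, lay 273 kb from the cluster, inside SKAP1, an adaptor gene of T cell signalling that borders HOXB1. It was 122 kb from the nearer end of SKAP1, a gene that counts below because the peak centre lies inside it. SKAP1, TTLL6 and the small genes PRAC1 (49.1 kb) and PRAC2 (46.8 kb) were the 4 of 15 neighbours of the clusters with a peak within 50 kb, or 26.7% against 6.22% of all protein-coding genes. These 4 genes share 2 peaks, so the count rests on HOXB alone. The peak of TTLL6, PRAC1 and PRAC2 is the HOXB region peak already described, so these genes are not a further observation. No neighbour of HOXA, HOXC or HOXD on this list had a peak within 50 kb.

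Genes of HOX partners and regulators were then counted in the same way. Of the 9 genes of DNA-binding partners (PBX, MEIS and PKNOX families, which bind DNA beside HOX proteins), 0 had a peak within 50 kb, and a list this short would hold less than 1 at the share of all genes. The nearest was MEIS3 at 159 kb, and MEIS1, the partner best known in leukaemia, was 1296 kb from a peak. Of 27 regulators of HOX transcription, 3 had a peak within 50 kb, or 11.1%, against 6.22% of all genes. They were CTCF, an insulator protein, with a peak 6.38 kb outside the gene, RNF2, a Polycomb ubiquitin ligase, at 12.2 kb, and SUZ12, a subunit of the Polycomb methyltransferase complex, at 33.9 kb. None of the 27 had one within 1 kb of a gene end.

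The RefSeq promoter windows (250 bases before to 50 after a gene's start, GRCh38.p14) were searched for TGATGNAA, the core of the site bound by ATF4 with a C/EBP partner, on both strands. Windows were given for 20 of the 38 HOX genes, 27 windows in all. They were spread unevenly: HOXA3 alone had 7, in HOXB only HOXB1 had a window, and in HOXC only HOXC4 and HOXC5. The search therefore says little about HOXB and HOXC. One window, of HOXA3, held the motif, and 1 of 27 was close to the 3.62% of all 35116 windows. None of the 27 held TGATGCAA (0.866% of all windows, a form included in the first motif), TGACGTCA (1.85%) or TGACGCAA (0.513%). By comparison, 10 of the 71 windows under a KG1a peak held TGATGNAA, or 14.1%, and 7 held TGATGCAA, or 9.86%. TGACGCAA was in 4 of the 71, or 5.63%, and TGACGTCA in 1, or 1.41%. These counts under peaks were added after the data were seen. The windows under peaks may differ from the rest in base composition, which was not compared. Of the 10 windows with TGATGNAA, 2 held the same form of the motif as HOXA3, TGATGAAA, 1 of them at GARS1. The HOXA3 match and 4 matches under KG1a peaks, GARS1 among them, are shown to set the forms side by side, each with 30 bases on either side (25 after the match in GARS1, up to the gene's start), along the strand of the gene, with the motif in capitals as it reads on that strand.
HOXA3: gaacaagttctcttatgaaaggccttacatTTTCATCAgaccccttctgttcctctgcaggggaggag
GARS1: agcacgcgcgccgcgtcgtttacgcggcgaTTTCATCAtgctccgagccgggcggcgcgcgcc
CHAC1: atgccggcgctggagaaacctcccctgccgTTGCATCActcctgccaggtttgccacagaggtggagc
AARS1: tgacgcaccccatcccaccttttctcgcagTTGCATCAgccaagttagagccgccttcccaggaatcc
HERPUD1: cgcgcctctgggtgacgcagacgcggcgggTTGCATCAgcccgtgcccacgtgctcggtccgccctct

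The HOXA3 stretch lies at chr7:27119709-27119776 on the minus strand, and the nearest KG1a peak was 2032 kb from the gene. Its match stands 151 to 144 bases before an annotated start that lies inside the gene interval, chr7:27107010-27152583. The others lie at chr7:30594815-30594877 on the plus strand (GARS1, which charges tRNA with glycine), chr15:40953232-40953299 on the plus strand (CHAC1, a glutathione-degrading enzyme), chr16:70289656-70289723 on the minus strand (AARS1, which charges tRNA with alanine) and chr16:56931936-56932003 on the plus strand (HERPUD1, of endoplasmic reticulum protein degradation). A match is a description of the letters and not a bound site.

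Set side by side, the lists had in common that HOXB was the only human HOX region with a peak and the mouse region with the most. In both, peaks stood beyond the HOXB13 end: 1 in KG1a and 12 in mouse marrow within 50 kb. The HOXA region was empty in both, but in KG1a so were HOXC, HOXD and most windows of that length. The mouse list was so much longer that these counts cannot be compared between the sources, and with 1 peak on the human side the likeness has no replicate check.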

How the data were processed

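ATF4 ChIP and input libraries of KG1a and mouse bone marrow cells were sequenced by the authors. The tools named in the submitters' processing notes are CASAVA 1.4, Bowtie2, MACS2 and deepTools, with builds GRCh38 and GRCm38; settings and the peak threshold are not given in the sources used here. Each deposited list has 3 columns, the chromosome, start and end of each peak of ChIP against input, and no other deposited value. Starts were read as counted from 0 and printed counted from 1.

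From these positions, peaks and covered bases were counted per region with Python 3.11.15, numpy 2.4.6, pandas 2.3.3 and scipy 1.17.1. Mouse autosomes were measured from their first to their last peak, human autosomes from the first to the last protein-coding gene. Gene positions and promoters came from RefSeq GRCh38.p14. Depth is unknown, so the error of single peaks cannot be stated. The counting was tested on 20 simulated lists and returned the planted peaks in 20.

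The clusters, gene lists and tests were chosen with earlier results of these data known. Genes named were HOX genes with a KG1a peak within 50 kb, the nearest and farthest of each cluster, members of 3 further lists with a peak within 50 kb, and the 5 widest mouse peaks per region. HOXA9, HOXB4, MEIS1 and MEIS3 were added outside this rule, as were the matches printed from promoters under peaks, which are a selection. The alternatives were other flanks, overlap in place of centres, the wider 50% of each list, joined peaks, the same chromosome as background, other gene distances and the exact motif.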

Additional observations from a re-analysis of the deposited data

How the results depend on the processing

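No paired analysis was possible because each group has 1 library. Of 92 values under alternatives, 74 stayed within 1.5 times the value given in the report. The 74 include values that were 0 under both settings, among them most of those of HoxA. They also include the ratio of covered shares of the HoxC sides, which turned from 1.26 to 0.898 when the cut was moved. The span moved out by 10 kb, the cut through a cluster moved by 10 kb and the first 50% of the list were added later, with the data in view. The HoxB density ratio to background ran from 1.83 to 3.57 and that of HoxC from 1.82 to 2.46, always above 1, although HoxC passed HoxB without flanks, with joined peaks and against the same chromosome. HoxA had 0 peaks except with flanks of 200 kb, where the density ratio was 0.68 and the coverage ratio 0.58. HoxD stayed below 1: its density ratio was 0.27 without flanks, 0 in the wider 50% of the list, 0.73 with joined peaks and 0 in the first 50% of the deposited order, and its coverage ratio was 0.083, 0.56 and 0 without flanks, with flanks of 200 kb and in the wider 50%. With joined peaks the median width in the Hox regions was 2060 bp, and the ratio of cluster to flanks turned to 1.30 in HoxB and 1.42 over all 4; joining merges the grouped peaks of the HoxB flank. With the cut 10 kb nearer to Hoxb13, the covered share of the Hoxb13 side was 2.59 times that of the anterior side, in place of 4.60. The KG1a count fell from 1 to 0 without flanks and in the wider 50% of the list, since its peak is outside the cluster and short. Within 10 kb, 1 of 27 regulators (CTCF) and 2 of 15 neighbours had a peak, or 3.70% and 13.3%, against 3.15% of all protein-coding genes. Of the HOX promoter windows given, which left out most HOXB and HOXC genes, 0 held TGATGCAA. Unknown depth limits every absence reported.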

Other observations

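The mouse peaks of HoxB formed groups. Joined across gaps of up to 3 kb, 7 peaks of the flank beyond Hoxb13 made 1 stretch of 10.9 kb, chr11:96151910-96162852, of which 5.96 kb was inside a peak. Next to the cluster, 3 peaks made a stretch of 6.49 kb, chr11:96177727-96184216, with 5.89 kb inside a peak. The longest stretch within the cluster, chr11:96210665-96217359, joined 2 peaks over 6.70 kb. In HoxC, 3 peaks made a stretch of 7.79 kb at chr15:102871176-102878960, and in HoxD no peaks were joined.

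The deposited order of the mouse list, whose meaning is not stated, placed the HoxD peaks late. They stood at places 63351, 69507 and 74658 of 83088. The earliest peak of a Hox region was chr11:96230899-96233782 in the HoxB cluster, at place 2315, and the earliest of HoxC was its widest, at place 4570.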
